A study of Homo sapiens with 12 samples.

Results

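The 8 genes described here are tumor suppressors and genes of the p53 pathway. They are CDKN2A, CDKN2B and MTAP of chromosome 9p21, the p53 targets CDKN1A and MDM2, and RB1, NF1 and TERT, which encodes the catalytic subunit of telomerase and is itself no tumor suppressor. They were taken from the deposited table as the rows, or transcript clusters (a cluster joins several probes along a gene into 1 value), whose only annotated gene was one of them. All 8 were found, of 18417 genes with a cluster of their own. NF1 had 3 such clusters and the other 7 genes 1 each, and where a gene had several the brightest over the 12 arrays was used.

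U87 is an established human glioblastoma cell line, here grown as 1 line in DMEM with charcoal-stripped serum and without phenol red from the day before treatment. It was treated for 72 h with vehicle (V, DMSO), with the neurosteroid allopregnanolone (3α-THP, 10 nM), with its precursor progesterone (P4, 10 nM) or with the 5α-reductase inhibitor finasteride (F, 100 nM). Each treatment was read on 3 arrays of the type Affymetrix Human Gene 1.0 ST, 12 in all, from total RNA, and numbered as biological replicates 1 to 3. The sample characteristics give 0.1% DMSO for V, while the protocol in the labels gives a higher share. The V arrays are the control of all 3 steroids, and the number of arrays limits the precision of every value. Because these are bulk samples, fewer cells with a transcript and less of it per cell cannot be told apart. The mesenchymal markers VIM, CD44 and FN1 lay above at least 99.3% of all named clusters in V, at 12.5, 11.8 and 13.2. The glial markers GFAP (6.15 in V), OLIG2 (5.66), S100B (3.78) and SOX2 (4.12) lay much lower. So did the marker NES, which lay under GFAP and above only 42.7% of the named clusters in V. PTPRC (2.97), CD14 (5.31) and CD3E (4.02) of white blood cells and PECAM1 (4.07) and CDH5 (5.24) of vessel cells were also low. Of 3 neuronal markers RBFOX3 (5.78) and SYT1 (5.06) lay as low as the glial ones, and SNAP25 lay at 8.55.

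The products of these genes act on 2 linked brakes of the cell cycle. CDKN2A encodes from different first exons both p16, an inhibitor of the cyclin D kinases CDK4 and CDK6, and ARF, which binds MDM2, and CDKN2B encodes the related inhibitor p15. MDM2 is the ubiquitin ligase that marks p53 for degradation, and it is also a transcriptional target of p53, so that the pair form a feedback loop. CDKN1A encodes p21, the cyclin-dependent kinase inhibitor that is the best known p53 target, and RB1 encodes the pocket protein that holds E2F factors until the kinases phosphorylate it. NF1 encodes neurofibromin, which switches RAS off, and MTAP encodes the enzyme that recycles the methylthioadenosine left by polyamine synthesis. U87 cells are known to lack the CDKN2A, CDKN2B and MTAP region on both copies of chromosome 9.

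Start regions in RefSeq were matched by symbol for all 8 genes, in 12 windows of 300 bases (250 before and 50 after an annotated start), since MDM2 has 4 starts and CDKN2A, for ARF and p16, has 2. Of these, 3 are shown, because they hold letters that p53, cAMP signaling and SP1 are known to act through, in both p53 targets and in NF1, the gene with the highest signal. They are given from 5′ to 3′ on the plus strand of GRCh38.p14, at chr12:68808767-68809066 for MDM2, chr6:36678464-36678763 for CDKN1A and chr17:31094727-31095026 for NF1. Capitals mark the p53 site in MDM2, GGGCGG in CDKN1A and TGACGTCA in NF1.
MDM2: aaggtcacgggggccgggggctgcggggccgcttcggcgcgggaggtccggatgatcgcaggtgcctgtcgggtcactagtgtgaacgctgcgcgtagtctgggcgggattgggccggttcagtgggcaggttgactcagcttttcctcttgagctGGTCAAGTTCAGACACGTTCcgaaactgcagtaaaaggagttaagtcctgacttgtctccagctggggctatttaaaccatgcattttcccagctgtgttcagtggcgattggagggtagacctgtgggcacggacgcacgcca
CDKN1A: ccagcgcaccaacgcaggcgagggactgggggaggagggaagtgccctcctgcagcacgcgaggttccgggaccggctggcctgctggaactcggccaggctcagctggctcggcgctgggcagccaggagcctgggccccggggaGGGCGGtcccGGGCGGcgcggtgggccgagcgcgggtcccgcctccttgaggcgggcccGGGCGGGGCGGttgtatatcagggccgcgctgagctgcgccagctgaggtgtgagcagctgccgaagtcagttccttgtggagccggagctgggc
NF1: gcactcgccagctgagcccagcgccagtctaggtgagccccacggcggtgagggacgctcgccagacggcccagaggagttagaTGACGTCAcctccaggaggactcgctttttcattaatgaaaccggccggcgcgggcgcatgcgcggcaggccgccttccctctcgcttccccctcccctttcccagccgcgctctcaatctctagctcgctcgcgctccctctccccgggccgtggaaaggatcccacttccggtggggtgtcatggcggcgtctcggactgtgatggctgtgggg

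The MDM2 window belongs to the internal start, 845 bases downstream of the first annotated one. It holds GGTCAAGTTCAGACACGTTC, which matches the 20-letter p53 consensus with at most 2 mismatches and begins 94 bases before the start. Such a site was found in 0.649% of 35116 RefSeq windows of this length, and among the 12 windows only in the 2 overlapping ones of this MDM2 start. The CDKN1A window holds GGGCGG 4 times, the last 2 copies overlapping by 1 base, and no p53 site of this kind. GGGCGG was present in 45.0% of all windows and in 9 of the 12. The cAMP response element TGACGTCA stands in the NF1 window only, 166 bases before the start, and in 1.85% of all windows. TGTTCT, part of the element that progesterone receptors bind, was found in RB1 only, and in 14.8% of all windows. Both strands were searched, and a match describes the letters and shows no binding.

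In V the 8 genes spread over more than 6 log2 units. The deposited values are log2 summaries, and those of different clusters depend on their probes, so a level is described by its place among all 21214 named clusters and beside 381 clusters of olfactory receptors, genes of another tissue. The 95th percentile of those receptor clusters was 5.38, and 68.8% of all named clusters lay above it. The taste receptor and keratin-associated protein genes, taken as another such background, gave 7.60, so the line below which a level cannot be told from background depends on the genes that set it.

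MTAP had the lowest level of the 8 genes. Its 3 V arrays read 4.27, 3.80 and 4.07, with a mean of 4.05 (SD 0.234, n = 3), and 14.0% of the named clusters were lower. CDKN2A read 5.03, 4.79 and 5.23 in V, with a mean of 5.02 (SD 0.223, n = 3), and 25.4% of the clusters were lower. Its single cluster lists transcripts of both p16 and ARF and does not separate them. Both genes lay under the receptor line on average.

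CDKN2B read 5.66, 5.47 and 5.71 in V, with a mean of 5.62 (SD 0.127, n = 3). This lay just above the receptor line but under the line of the 99th percentile, 6.09, and under that of the taste receptor and keratin genes. The DNA of these cells is not analysed here, and in V no gene of the 3 known to be deleted lay above more than 35.2% of the named clusters.

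Of the genes outside 9p21, TERT was the lowest. It read 6.92, 6.67 and 6.93 in V, with a mean of 6.84 (SD 0.149, n = 3), above both receptor lines and under the line of the taste receptor and keratin genes. Telomerase transcripts are known to be scarce, and whether this value is above the background of its own probes was not tested.

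The p53 targets and RB1 and NF1 lay above all of these lines. CDKN1A read 8.22, 8.11 and 8.27 in V, with a mean of 8.20 (SD 0.082, n = 3), above 81.9% of the named clusters. RB1 read 8.20, 8.53 and 8.17, with a mean of 8.30 (SD 0.203, n = 3), above 83.2%. Replicate 2 was the high array of RB1 and the low array of CDKN1A.

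MDM2 read 9.36, 9.43 and 9.35 in V, with a mean of 9.38 (SD 0.044, n = 3), above 93.1% of the clusters. NF1 was the highest, at 10.36, 10.30 and 10.34, with a mean of 10.33 (SD 0.029, n = 3), above 97.2%. The other 2 clusters annotated only to NF1 have equal values on every array and a mean of 8.05 in V (SD 0.053, n = 3). NF1 is known to have many pseudogenes with near-identical sequence, so what these 2 clusters measure is uncertain.

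From low to high the order over all 12 arrays was MTAP, CDKN2A, CDKN2B, TERT, CDKN1A, RB1, MDM2 and NF1. The ranges of neighbours in this order did not overlap, except those of CDKN1A (7.85 to 8.29) and RB1 (8.17 to 8.96). The highest CDKN2A array and the lowest CDKN2B array were 0.085 apart.

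**Figure D1:**
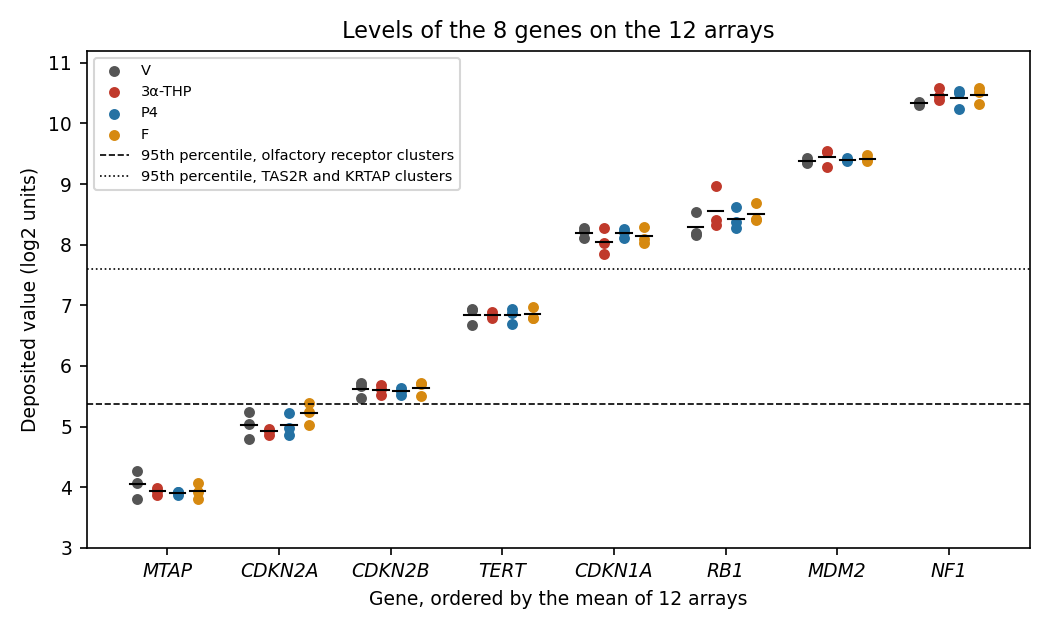
Deposited log2 value (vertical axis) of each of the 8 genes (horizontal axis, ordered by mean) on the 12 arrays, 1 point per array with colors for the treatment and a black bar for the mean of 3 arrays; dashed and dotted lines mark the 95th percentile of the olfactory receptor clusters (5.38) and of the taste receptor and keratin-associated clusters (7.60). MTAP and CDKN2A have their means under the dashed line, CDKN2B and TERT lie between the lines, and CDKN1A, RB1, MDM2 and NF1 lie above both.

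The low level of the 9p21 genes was set beside that of their neighbours. Of 41 listed genes around CDKN2A, 34 had a cluster of their own, and with MTAP, CDKN2A and CDKN2B they make 37 measured genes in RefSeq order. The stretch from MLLT3 to ELAVL2, whose ends were chosen after the values were seen, holds 21 of them. The median of all 21 was 3.18 in V. Under the receptor line lay 19 of them, and CDKN2B and DMRTA1, a putative transcription factor (6.02, SD 0.194), lay above it. Of the 21, 11 are type I interferon genes, which cells are known to keep silent unless infected. Other genes under the line were FOCAD at 3.59 (SD 0.145), the ubiquitin ligase adaptor KLHL9 at 4.06 (SD 0.196) and the fatty acid enzyme HACD4 at 2.66 (SD 0.093). The cause of the low levels in the stretch was not tested.

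On the side of the short arm's end, 7 of 10 genes from SH3GL2 to SLC24A2 lay above the line. RPS6, a protein of the small ribosomal subunit, stood at 10.13 (SD 0.042), the amino acid sensor GTPase RRAGA at 8.16 (SD 0.042) and DENND4C, which activates RAB GTPases, at 7.99 (SD 0.101). ADAMTSL1 stood at 7.70 (SD 0.163), HAUS6 of the spindle augmin complex at 6.88 (SD 0.444), the exchanger gene SLC24A2 at 6.48 (SD 0.084) and SH3GL2 at 5.88 (SD 0.057). On the other side 3 of 6 did, namely TUSC1 at 6.63 (SD 0.061), PLAA, which acts in ubiquitin-dependent sorting, at 7.39 (SD 0.286), and the ciliary gene IFT74 at 5.23 (SD 0.391), which passed by its mean over all arrays. Not every gene outside the stretch was high, since PLIN2, ACER2, SAXO1, CAAP1, LRRC19 and TEK also lay under the line.

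**Figure D2:**
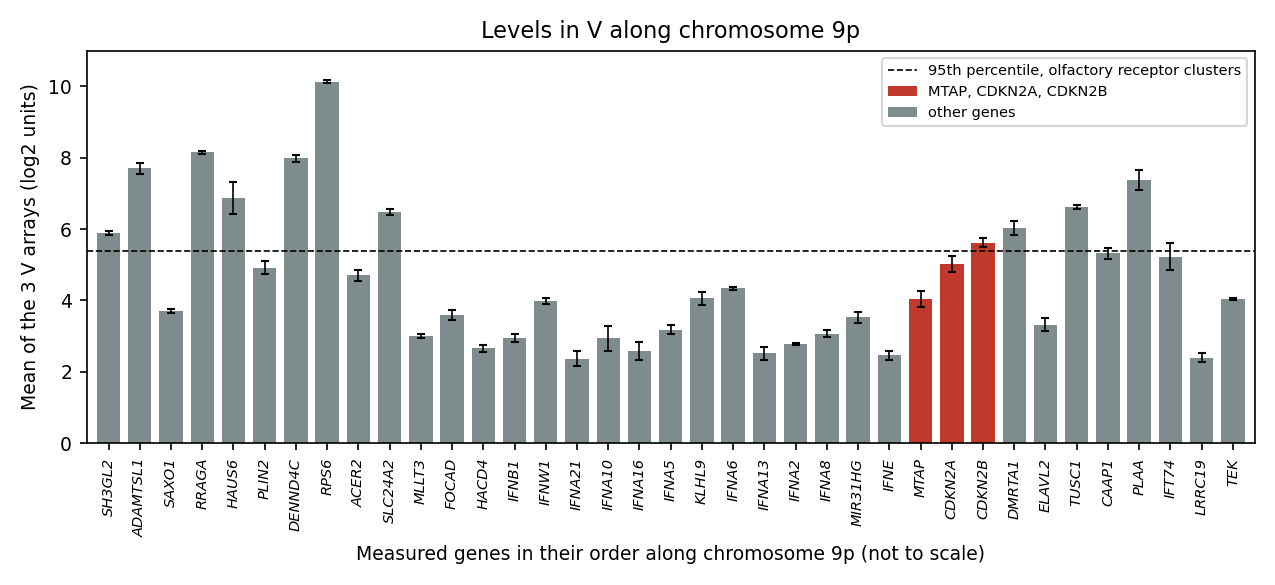
Mean of the 3 V arrays in log2 units (vertical axis; error bars, SD over 3 arrays) for 37 measured genes in their order along chromosome 9p (horizontal axis, not to scale), with MTAP, CDKN2A and CDKN2B in red and the 95th percentile of the olfactory receptor clusters dashed. The bars from MLLT3 to ELAVL2 lie under the dashed line but for CDKN2B and DMRTA1, while RPS6 reaches 10.13 and PLAA 7.39 on either side.

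With 3α-THP 0 of the 8 genes passed the threshold of the methods, a fold of more than 1.5 together with p under 0.05 before adjustment (here from limma). It was passed by 0.679% of the 21214 tested clusters, and a limma adjusted p under 0.05 by 0.00471%, with 3α-THP as with F. The differences of the 8 genes ran from -0.15 to 0.26 on the log2 scale, with a median of -0.01 beside -0.03 for all clusters. At an unadjusted p under 0.05 were 0 of the 8, and 7.34% of all clusters. In limma their adjusted p ran from 0.805 to 0.995. With 7 of the 8 genes the 95% interval of the difference lay within the 1.5-fold limits, and that of RB1 reached a fold of 1.53.

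RB1 had the largest difference with 3α-THP among the 8. Its 3α-THP arrays read 8.32, 8.96 and 8.40, beside 8.20, 8.53 and 8.17 in V, a log2 difference of 0.26 (SE 0.165, 95% interval -0.10 to 0.62). The groups overlapped, but each 3α-THP array was higher than its V counterpart of equal number. Blocking on the replicate number left the difference as it was, with an SE of 0.085, an unadjusted p of 0.00957 and an adjusted p of 0.214 in limma, still under a fold of 1.5. Without 3α-THP replicate 2 it was 0.06.

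NF1 was the only one of the 8 whose 3α-THP and V arrays did not overlap, beside 11.3% of all clusters. Its 3α-THP arrays read 10.39, 10.45 and 10.58, all above the V arrays, a log2 difference of 0.14 (SE 0.101, 95% interval -0.08 to 0.36). The other NF1 clusters differed by 0.22 (SE 0.123), with overlapping arrays.

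CDKN1A lay lower on average. It read 8.03, 7.85 and 8.27 with 3α-THP, a log2 difference of -0.15 (SE 0.11, 95% interval -0.39 to 0.09), and replicate 3 lay at the level of V replicate 3. Without 3α-THP replicate 2 it was -0.05, and without replicate 3 it was -0.26. MDM2 read 9.29, 9.54 and 9.53, a log2 difference of 0.07 (SE 0.083, 95% interval -0.11 to 0.25). The groups overlapped in both p53 targets.

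TERT read 6.89, 6.79 and 6.82 with 3α-THP, a log2 difference of -0.01 (SE 0.098, 95% interval -0.22 to 0.20). The 9p21 genes differed by -0.11 (MTAP, SE 0.11), -0.10 (CDKN2A, SE 0.129) and -0.01 (CDKN2B, SE 0.091). Their arrays overlapped with those of V in each case. MTAP had its highest array in V replicate 1, without which its difference was -0.0015 with 3α-THP, -0.03 with P4 and -0.0036 with F.

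With P4 0 of the 8 genes passed the same threshold, beside 0.0236% of all clusters, and 0 had an unadjusted p under 0.05, beside 1.82%. The differences ran from -0.14 (MTAP) to 0.13 (RB1, SE 0.165) on the log2 scale. RB1 read 8.38, 8.62 and 8.28 with P4, each higher than the V array of its number, with overlapping groups. NF1 read 10.51, 10.24 and 10.54, a log2 difference of 0.09 (SE 0.101), with replicate 2 below all V arrays. CDKN1A, at 8.26, 8.10 and 8.22, and MDM2, at 9.42, 9.40 and 9.37, differed by -0.01 (SE 0.11) and 0.02 (SE 0.083). The P4 and V arrays overlapped in all 8 genes, beside 5.44% of all clusters in which they did not, and all 8 intervals lay within the 1.5-fold limits.

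With F 0 of the 8 genes passed as well, beside 0.396% of all clusters, and 0 had an unadjusted p under 0.05, beside 4.69%. RB1 read 8.42, 8.68 and 8.40, a log2 difference of 0.20 (SE 0.165, 95% interval -0.16 to 0.56). Each F array was again higher than the V array of its number, and with the block the SE was 0.085 and the adjusted p 0.531 in limma. CDKN2A had a difference of nearly the same size, at 5.39, 5.23 and 5.03 with F (log2 difference 0.20, SE 0.129, 95% interval -0.08 to 0.48), although its level lies in the range of the receptor clusters. The CDKN2A value was 0.08 without V replicate 2 or with array weights and 0.31 without V replicate 3. NF1 read 10.51, 10.32 and 10.59, a log2 difference of 0.14 (SE 0.101), and CDKN1A read 8.10, 8.03 and 8.29, one of -0.06 (SE 0.11). MDM2, TERT and CDKN2B differed by 0.04, 0.01 and 0.03, and MTAP by -0.11. The groups overlapped in all 8 genes, beside 9.11% of all clusters in which they did not, and all 8 intervals lay within the 1.5-fold limits.

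3α-THP and P4 were given at the same dose and for the same time, and 3α-THP is the 5α- and 3α-reduced metabolite of P4. Between them 0 of the 8 genes passed the threshold, beside 0.25% of all clusters, and the log2 differences, 3α-THP minus P4, ran from -0.14 in CDKN1A (SE 0.11, 95% interval -0.38 to 0.10) to 0.13 in RB1 (SE 0.165, 95% interval -0.22 to 0.49). Without 3α-THP replicate 2 the RB1 difference turned to -0.07 and that of CDKN1A was -0.04. All 8 intervals lay within the 1.5-fold limits. In limma the lowest of the 8 adjusted p values was 0.999, and 0 had an unadjusted p under 0.05, beside 3.96% of all clusters. Their arrays overlapped in all 8 genes, beside 8.22% of all clusters in which they did not. F was given at a higher dose, so its values stand beside theirs without a comparison.

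**Figure D3:**
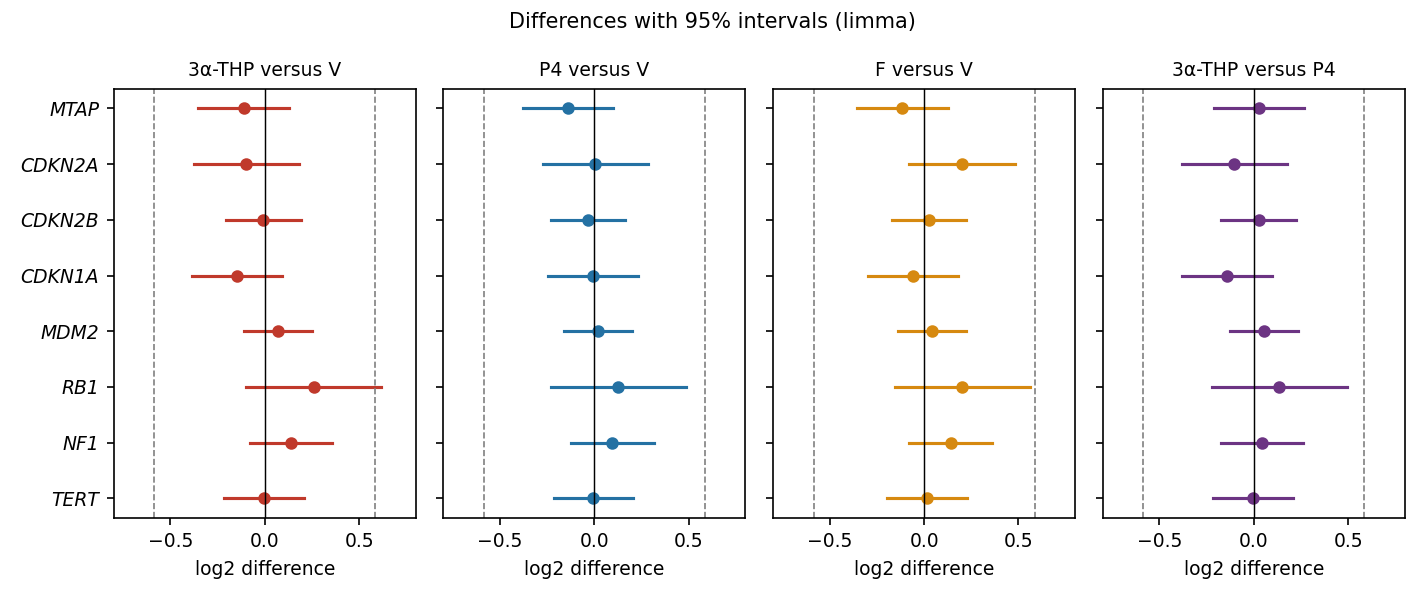
Log2 difference (horizontal axes) of each of the 8 genes (vertical axis) in the 4 comparisons, with points for limma's estimate and lines for its 95% interval; dashed lines mark the 1.5-fold limits. All points lie between -0.15 and 0.26, and only the interval of RB1 with 3α-THP crosses a dashed line.

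In some of the 8 genes the arrays differed more by replicate number than by treatment. In RB1 the array numbered 2 was the highest in each of the 4 treatments, and the number accounted for 69.3% of the spread over the 12 arrays beside 20.6% for the treatment. In CDKN1A the array numbered 2 was the lowest in each treatment, and the shares were 58.8% and 22.0%. In NF1 they were 44.9% and 25.8%, and replicate 2 was the lowest with V, P4 and F but not with 3α-THP. In MDM2 the number accounted for 8.57%, the smallest share among the 8 genes, and in TERT the treatment accounted for 0.843%. The labels call the numbers biological replicates and say no more of them, and their part in the differences was not tested beyond the block.

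**Figure D4:**
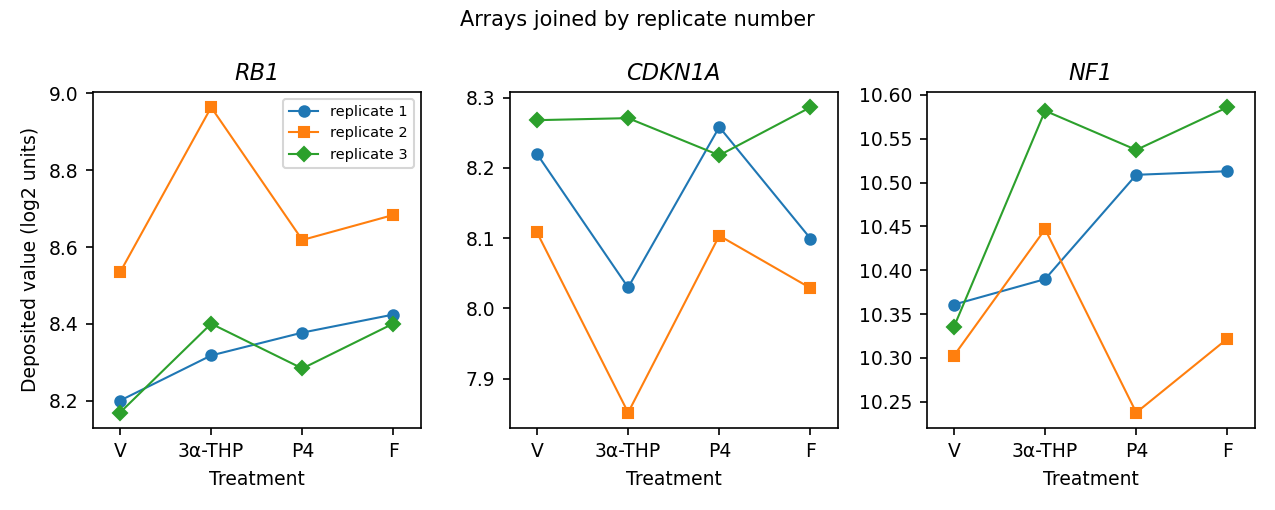
Deposited log2 values (vertical axes, scaled separately and not from 0) of RB1, CDKN1A and NF1 on the 12 arrays, by treatment (horizontal axes), with arrays of the same replicate number joined by lines. Replicate 2 lies highest in RB1, at 8.53 to 8.96, and lowest in CDKN1A, at 7.85 to 8.11, in every treatment.

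For each member above the receptor line the 3 genes with the highest Pearson correlation over the 12 arrays were looked up among 13397 clusters, as a description, since the arrays share replicate numbers and controls. For RB1 they were TOP1 (r = 0.974), UTP20 (0.96) and NMRAL2P (0.958), in which the replicate number accounted for 67.4%, 76.3% and 62.3% of the spread. For CDKN1A they were SNORD116-15 (r = 0.968), CLK3 (0.962) and SNORD117 (0.957), with 67.0%, 59.1% and 69.1%. For NF1 they were WDFY3 (r = 0.931), SHPRH (0.93) and LPP (0.928). For MDM2 the closest were ZNF706 (r = 0.885), SLC38A2 (0.864) and ABI1 (0.851), and for TERT they were ASTL (0.927), LAT2 (0.911) and KIAA1614 (0.906). For CDKN2B they were RASSF10 (r = 0.906), HAPLN4 (0.892) and IGLL1 (0.889). CDKN2B is known to be deleted in U87 and read only 5.47 to 5.71, near the receptor line, so these are not read as partners of an expressed gene. A search of 13397 clusters over 12 arrays also yields high values without any link, and no value of r was tested.

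The other genes of these pathways were counted from lists written from general knowledge. The 8 lists hold 189 measured genes, and with 3α-THP 1 passed the threshold, with P4 0, with F 1 and between 3α-THP and P4 1, which is 0.529%, 0%, 0.529% and 0.529% of them, beside 0.679%, 0.0236%, 0.396% and 0.25% of all clusters. It was RIF1 each time, a gene of replication timing and break repair that also sits at telomeres and that the study chose on these arrays for RT-qPCR. RIF1 read 8.19, 8.49 and 8.52 with 3α-THP beside 7.11, 7.81 and 7.04 in V, a log2 difference of 1.08 (SE 0.236, limma adjusted p = 0.376). With F it differed by 0.81 (SE 0.236, limma adjusted p = 0.898), with overlapping groups, and with P4 by 0.34 (SE 0.236). The study itself lists no change of RIF1 with F on these arrays, which differs from the call here. Its RT-qPCR found RIF1 raised with 3α-THP and also with F. No gene of the lists passed the adjusted p.

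Of 34 p53 target genes other than CDKN1A and MDM2, 32 were measured, all of them above the receptor line, and 0 passed the threshold in any of the 4 comparisons. With 3α-THP 6 of the 32 had a positive difference and 26 a negative one, with a median of -0.06 beside -0.03 for all clusters. Negative differences were also more frequent with P4 (22 of 32) and with F (21 of 32). The median of all clusters was negative in these comparisons too, and the steroids share the V arrays, so the counts are not independent. Whether they exceed the share of negative differences over all clusters was not tested. The 2 genes with the smallest p with 3α-THP were PHLDA3 and CD82, and 11.3% of all clusters had no overlap in that comparison. PHLDA3, a repressor of AKT signaling, read 7.18, 7.14 and 7.14 with 3α-THP and 7.47, 7.35 and 7.50 in V, without overlap, a log2 difference of -0.29 (SE 0.079, limma adjusted p = 0.415). The tetraspanin gene CD82 differed by -0.30 (SE 0.092, limma adjusted p = 0.492), also without overlap. With F they had -0.11 and -0.18, and the DNA damage sensor XPC had 0.28 (SE 0.095, limma adjusted p = 0.911). The medians with P4 and F were -0.02 and -0.03, beside -0.01 and -0.02 for all clusters.

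Of 21 regulators of p53, 0 passed, and the damage kinases ATM and ATR had log2 differences of 0.35 (SE 0.192) and 0.26 (SE 0.167) with 3α-THP and of 0.32 and 0.25 with F. RPL11, a ribosomal protein that binds MDM2, had -0.12 with 3α-THP (SE 0.074). Of 26 measured genes of the RB pathway, 0 passed. CDK6, a kinase that p16 and p15 inhibit, had 0.25 with 3α-THP (SE 0.094, limma adjusted p = 0.608) and 0.22 with F (SE 0.094), with overlapping arrays. The inhibitor gene CDKN1B had -0.18 with 3α-THP (SE 0.094) and CDKN2D had -0.17 with F (SE 0.102).

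Of 20 measured genes around NF1 and RAS, 0 passed. RASA2, another GTPase-activating protein for RAS, had 0.38 with 3α-THP (SE 0.173, limma adjusted p = 0.674), and SOS1, an activator of RAS, had 0.17 with 3α-THP and 0.17 with F (SE 0.085 in each). SOS2 had 0.15 with F (SE 0.084). Besides RIF1, the 16 other measured telomere genes did not pass, TINF2 of the shelterin complex having -0.26 with 3α-THP (SE 0.081, limma adjusted p = 0.501) and TERF2 -0.16 with F (SE 0.09).

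Of the 34 measured neighbours on chromosome 9p, 0 passed. IFT74 had 0.57 with 3α-THP (SE 0.167, limma adjusted p = 0.474), just under the fold of the threshold, which it passed with array weights, with array median centring and without V replicate 2, 3α-THP replicate 1 or 3α-THP replicate 3. IFNA10, at 2.94 in V and so among the dimmest clusters, had -0.44 with 3α-THP and -0.53 with F (SE 0.172 in each). Its difference with F, but not that with 3α-THP, passed without V replicate 2. TEK had 0.23 with F (SE 0.091). Of 20 genes of methionine salvage, of polyamine metabolism and of the methyltransferase PRMT5 with its partners, 0 passed. OAZ2, an antizyme that curbs polyamine synthesis, had -0.36 with 3α-THP (SE 0.106, limma adjusted p = 0.472) and -0.24 with F (SE 0.106). Its arrays did not overlap in either, as in 11.3% and 9.11% of all clusters. MAT2B had -0.11 and -0.12. Of 20 other measured tumor suppressor genes, 0 passed, the histone methyltransferase genes SETD2 and KMT2C having 0.20 and 0.18 with 3α-THP and 0.21 and 0.18 with F (SE 0.09 and 0.092), and LZTR1 -0.22 with 3α-THP (SE 0.103).

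**Figure D5:**
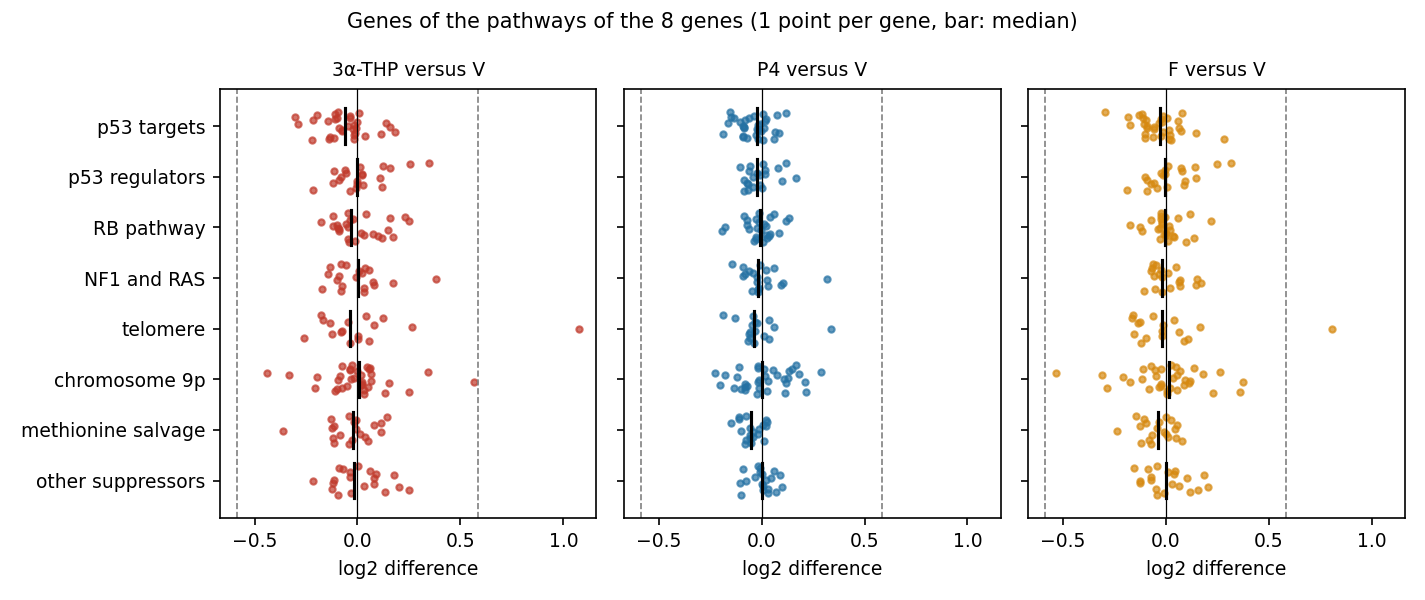
Log2 difference from V (horizontal axes) of each measured gene of the 8 lists (vertical axis), 1 point per gene, with a black bar for the list's median and dashed lines for the 1.5-fold limits. Points lie between the dashed lines except that of RIF1 in the telomere list, at 1.08 with 3α-THP and 0.81 with F.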

How the data were processed

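The table holds the log2 values that the authors deposited for 33297 transcript clusters on 12 arrays, made with Affymetrix Expression Console 1.4 according to the submitters' processing notes. The methods name quantile normalization without tying it to the deposited table, and the genome build is not given in the sources used here. No array was left out and no value is missing. The 21214 clusters with a gene name in the platform annotation were tested, 19460 of them with 1 gene. Array medians lay between 6.35 and 6.40.

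All 4 treatments were fitted together by treatment means in limma 3.58.1 (R 4.3.3), unpaired, with Benjamini-Hochberg adjustment over all tested clusters. The script was tested on simulated data. Once each treatment's mean was taken off, the 18 array pairs sharing a replicate number correlated at 0.132 to 0.631, with a median of 0.40. The 36 pairs with unlike numbers ran from -0.60 to 0.226, with a median of -0.245. The ranges overlap, but by their medians arrays of equal number were more alike. Because each mean was taken over 3 arrays, positive values for equal numbers force negative ones for unlike numbers. The medians are therefore not separate results, and the gap between them is widened by this step. Among the 8 genes the fit with a block is given for RB1, CDKN1A and NF1, and all other SEs, intervals and p values are unpaired. In CDKN1A with 3α-THP the block took the SE from 0.11 to 0.079, and limma's unadjusted p from 0.202 to 0.0836. In NF1 with 3α-THP it took the SE from 0.101 to 0.081, and limma's unadjusted p from 0.189 to 0.11. The block also changed SEs elsewhere. With 3α-THP the SE fell from 0.192 to 0.102 in ATM and from 0.106 to 0.076 in OAZ2, and rose from 0.172 to 0.173 in IFNA10. The genes named are the 8 members, list genes past the threshold, the 2 of each list with the smallest p with 3α-THP or with F, and the 9p genes above the receptor line. Alternatives changed the block, the arrays, the test, the normalization, the clusters tested, the weights and the variance prior. The members and lists were chosen with earlier results of these data known. Motifs were searched in RefSeq windows.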

Additional observations from a re-analysis of the deposited data

How the results depend on the processing

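None of the 8 genes passed the threshold in any of the 4 comparisons under the alternatives run for it, the block included. These were 21 alternatives, or 20 for MTAP and CDKN2A, which the fit of clusters above background leaves out. Those that changed only the block, the test, the groups fitted, the clusters tested or the variance prior left the log2 differences as they were. The largest of these differences was 0.26 (RB1 with 3α-THP), under the fold of the threshold. Whatever their p, those fits could not make a call. Arrays left out, normalization or weights moved the differences, which stayed at most 0.38 in size. An unadjusted p under 0.05 was reached by a member in 9 of 664 recomputed values, of which 2 were RB1 with the block, 6 enlarged a difference by leaving out 1 array in MTAP, CDKN1A or CDKN2A, and 1 did so in RB1. Leaving out other arrays made the same differences smaller. Over all arrays left out in turn, RB1 with 3α-THP ran from 0.06 to 0.38 and CDKN1A with 3α-THP from -0.26 to -0.05. MTAP ran from -0.23 to -0.0015 with 3α-THP, -0.26 to -0.03 with P4 and -0.24 to -0.0036 with F, so that without V replicate 1 little of its difference was left. CDKN1A ran from -0.25 to -0.04 between 3α-THP and P4, and CDKN2A from 0.08 to 0.31 with F. RIF1 kept its calls throughout.

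Values of the members changed sign 41 times. In 38 of these the reported difference was under 0.05 in size, and in the other 3 it was -0.10 (CDKN2A with 3α-THP and between 3α-THP and P4) and 0.13 (RB1 between 3α-THP and P4). The cause was not tested. With quantile normalization CDKN2A and CDKN1A had -0.0157 and 0.0058 with P4. With array weights CDKN2A had -0.11 with P4, CDKN2B -0.0392 and TERT -0.0331 with F, and TERT 0.001 between 3α-THP and P4. With array median centring CDKN2B had 0.0099 and TERT 0.0104 with 3α-THP, and TERT 0.0106 between 3α-THP and P4. Without any 1 array, CDKN2A ran from -0.21 to 0.01 with 3α-THP, -0.11 to 0.11 with P4 and -0.18 to 0.0012 between them. CDKN2B ran from -0.0788 to 0.0418 with 3α-THP, -0.11 to 0.0152 with P4, -0.0456 to 0.0915 with F and -0.0129 to 0.0709 between 3α-THP and P4. TERT ran from -0.0927 to 0.0401, -0.0909 to 0.0633, -0.0711 to 0.0617 and -0.0701 to 0.0481 in the same comparisons. CDKN1A ran from -0.0507 to 0.0394 with P4, and between 3α-THP and P4 RB1 ran from -0.0674 to 0.26 and NF1 from -0.0502 to 0.0995.

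Of the 8 genes 6 lay above the receptor line, 5 above its 99th percentile and 4 above the line of the taste receptor and keratin genes. The median of all NF1 clusters was 8.05 in V. Over all clusters the counts past the threshold, 144 with 3α-THP, 5 with P4, 84 with F and 53 between 3α-THP and P4, ran from 104 to 240, 4 to 19, 44 to 167 and 25 to 135 without any 1 array. Under the other alternatives they ran from 118 to 215, 1 to 17, 62 to 162 and 23 to 71, the highest with array weights in all 4 comparisons. The lowest count with P4 came from the clusters above background only, while the variance analysis named in the methods gave 2 with P4 and 23 between 3α-THP and P4. The signal over background limits what can be said of MTAP, CDKN2A, CDKN2B and TERT.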
